A study of Homo sapiens with 4 samples.

Results

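The serpins, a superfamily of protease inhibitors and related carrier proteins, were examined in A549, an established human lung adenocarcinoma line. Members were the protein-coding genes of GENCODE release 29 (GRCh38) whose symbol starts with SERPIN, and 34 of the 58735 genes in the count table met this rule. The 33 described here fall into clades A (10 genes), B (13), C (1), D (1), E (2), F (2), G (1), H (1) and I (2). RNA-seq counts were compared between 2 control libraries and 2 UHRF1 KO libraries. Control cells carried a non-targeting CRISPR guide and UHRF1 KO cells a guide against UHRF1, and both guides came in the same hygromycin-selected lentiviral CRISPR vector. UHRF1 is the factor that directs maintenance DNA methylation to newly replicated DNA. Whether cells were clones or pools is not in the labels, nor is the origin of replicates in distinct cultures. The p-values therefore set the difference between groups against the scatter of these libraries only, and that scatter may be technical.

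Most serpins are inhibitors that work by suicide. A protease cuts an exposed reactive centre loop, the loop inserts into the body of the serpin, and the protease is left trapped in a distorted, inactive complex. Clade A proteins are largely secreted by liver into plasma, clade B proteins mostly stay inside cells, and the smaller clades hold regulators of coagulation, fibrinolysis and complement. A few members, among them SERPINA6, SERPINA7, SERPINB5, SERPINF1 and SERPINH1, are not known as classical protease inhibitors and serve as hormone carriers, secreted or cellular regulators, or a collagen chaperone. In lung, SERPINA1 is best known as the plasma shield against neutrophil elastase.

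Libraries held 18604598 to 23977168 counts, and levels are read counts scaled to the library total (CPM) after TMM scaling. Differences are log2 fold changes of UHRF1 KO against control from edgeR's quasi-likelihood test, each with an approximate standard error (SE), and a gene was called at a Benjamini-Hochberg adjusted p under 0.05 over the 17030 genes tested. UHRF1 itself had 97.6 and 98.9 CPM in control against 39.1 and 40.2 CPM in UHRF1 KO. As a check of the line, the epithelial keratin KRT8 had 2676 ± 108 CPM in control against 2108 ± 16.03 CPM in UHRF1 KO (SD, n = 2), while the lung markers NKX2-1 and SFTPA1 had 0 counts in every library. Of 16 A549 and epithelial markers listed, 13 were tested, 2 rose and 10 fell, where 32.0% and 30.1% of all genes tested did. Among those that fell, the xenobiotic enzymes ALDH1A1 and AKR1B10, abundant in A549, fell 3.31-fold and 4.04-fold.

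Serpin transcripts were more abundant in UHRF1 KO. Summed over the 33 genes they came to 566.4 and 549.2 CPM in the control libraries and to 781.3 and 797.5 CPM in the UHRF1 KO libraries. In bulk libraries a larger share of cells with a transcript and more RNA per cell cannot be told apart.

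Of the 33 members, 9 had 0 counts in all 4 libraries and 8 had counts but did not pass the filter on low counts, which left 16 tested. Of these, 13 rose and 2 fell, and SERPINF2 was not called. Over all genes tested, 32.0% rose and 30.1% fell. Of the 16, 9 rose at least 2-fold, against 15.4% of all genes tested, and both falls were under 2-fold, a size of fall that 2.54% of all genes tested reached. The median log2 fold change was 1.15 over the tested serpins and 0.02 over all genes tested. For 6 tested members only the UHRF1 KO libraries reached the filter, so a call of lower was hardly possible. These were SERPINA1, SERPINB3, SERPINB4, SERPINB5, SERPIND1 and SERPINE3. Among the 10 that passed in both groups, 7 rose and 2 fell, where 27.3% of all such genes rose and 34.4% fell, and their median was 0.46. At least 2-fold rises were 3 of these 10, against 7.87% of such genes, and at least 2-fold falls made up 2.10% of such genes. Libraries of the groups did not overlap for 15 of the 16, against 80.0% of all genes tested. With every library recentred on its mean log2 level, 11 members were higher and 3 lower. That setting moved the median of all tested genes to -0.28 and the share of rises among all calls from 51.55% to 29.02%.

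**Figure D1:**
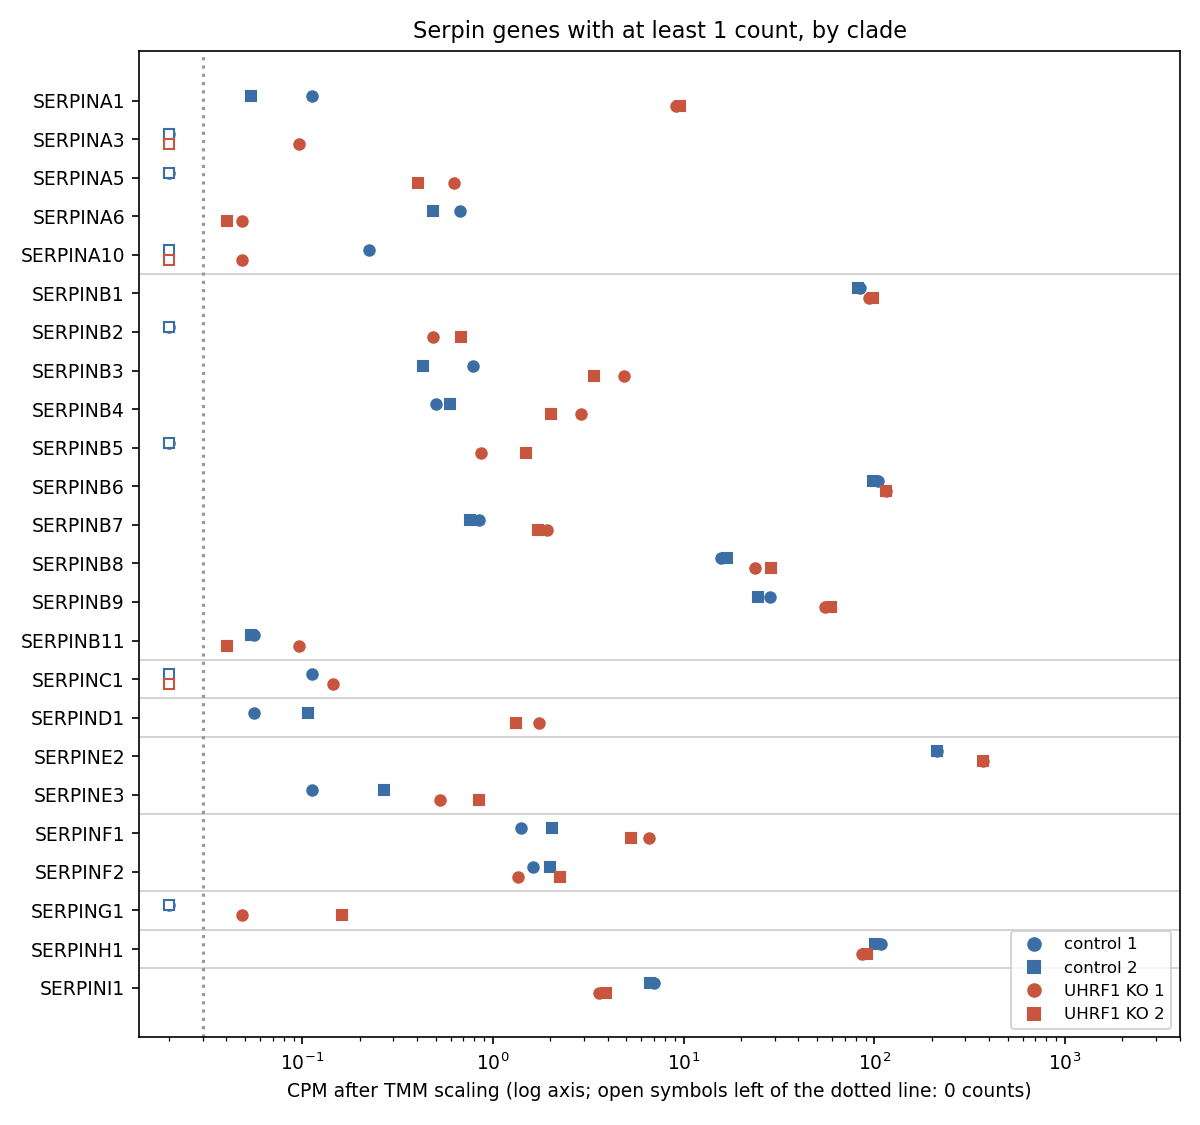
Level of each serpin gene with at least 1 count, in CPM on a log axis, by library (blue, control; red, UHRF1 KO; circles, replicate 1; squares, replicate 2), with clades separated by lines. SERPINE2 lies highest at 371 and 371 CPM in UHRF1 KO, and SERPINA1 moves from 0.112 and 0.0539 CPM to 9.11 and 9.53 CPM.

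Clade E includes regulators of plasminogen activation and thrombin. SERPINE2, or protease nexin-1, inhibits thrombin and urokinase at the cell surface and lies on chromosome 2 (223975112 to 224039319, minus strand). It had 213 and 213 CPM in control against 371 and 371 CPM in UHRF1 KO, a 1.74-fold rise (log2 fold change 0.80, SE 0.036, edgeR adjusted p = 3.58e-19). The difference between groups was many times that between replicates. SERPINE3, a little-studied paralogue on chromosome 13, had 2 and 5 counts in control and 11 and 21 in UHRF1 KO (log2 fold change 1.83, SE 0.61, edgeR adjusted p = 0.0103). This call is fragile: adjusted p was 0.171 without control replicate 1, 0.200 without UHRF1 KO replicate 2 and 0.112 with DESeq2, and the log2 fold change ran from 1.33 to 2.55 over the 4 fits without 1 library. SERPINE3 also shares 789 bases, 30.3% of its exons, with the opposite strand of INTS6, which had 555 to 871 counts, and no source used here states whether counting used strand.

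Proteases and receptors of plasminogen activation, the system in which SERPINE2 acts, were also read. The urokinase gene PLAU rose from 103 ± 5.15 to 239 ± 1.86 CPM and the tissue activator gene PLAT from 3.28 ± 1.39 to 9.97 ± 0.53 CPM (SD, n = 2). The urokinase receptor gene PLAUR rose 3.76-fold, from 47.5 ± 3.20 to 178 ± 6.86 CPM. LRP1, the endocytic receptor that clears serpin-protease complexes, rose from 90.7 ± 1.14 to 244 ± 0.26 CPM. The edgeR adjusted p of these 4 genes ran from 2.20e-25 to 6.27e-09. They were picked from longer lists: PLG, the plasminogen gene itself, had 0 counts in all libraries, and F2, the thrombin gene, was not called (log2 fold change 0.14, edgeR adjusted p = 0.74).

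Clade B serpins are mostly cytosolic inhibitors that protect cells from proteases released inside them or taken up from neighbours. Of 13 members, 8 were tested and 8 rose, where 32.0% of all genes tested did, with a median log2 fold change of 1.15. Of the 8, 3 had passed the filter through UHRF1 KO alone. SERPINB10, SERPINB12 and SERPINB13 had 0 counts in all libraries. The clade lies in 2 clusters, 3 genes at 6p25 and 10 genes at 18q21, and these differed in level. The 6p25 genes had a summed level of 217 and 205 CPM in control against 265 and 273 CPM in UHRF1 KO. The 18q21 genes together had 17.9 and 18.7 CPM in control against 34.96 and 38.10 CPM in UHRF1 KO, most of it from SERPINB8.

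At 6p25, SERPINB9 (chromosome 6, 2887266 to 2903280, minus strand) encodes the inhibitor of granzyme B, the killer protease of cytotoxic lymphocytes. It had 28.4 and 24.7 CPM in control against 55.0 and 59.6 CPM in UHRF1 KO, a 2.16-fold rise (log2 fold change 1.11, SE 0.072, edgeR adjusted p = 5.41e-15). Both UHRF1 KO libraries were above both controls. SERPINB1, an inhibitor of neutrophil elastase and cathepsin G, had 83.7 and 82.0 CPM in control against 94.2 and 98.4 CPM in UHRF1 KO (log2 fold change 0.22, SE 0.049, edgeR adjusted p = 2.79e-04). SERPINB6, which inhibits cathepsin G and trypsin-like proteases, had 105 and 98.2 CPM in control against 116 and 115 CPM in UHRF1 KO (log2 fold change 0.19, SE 0.047, edgeR adjusted p = 9.19e-04). The direction of these small rises rested on the scaling, since with libraries recentred SERPINB1 was at -0.08 (edgeR adjusted p = 0.147) and SERPINB6 at -0.11 (edgeR adjusted p = 0.0349). SERPINB9 stayed higher there, at 0.82.

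SERPINB9 had a promoter rich in CpG, the dinucleotide that DNA methylation modifies, and was well expressed in control. RefSeq gives the start site used here, and the 250 bases before it are shown to set beside the CpG-poor promoters below (chr6:2903310-2903559, GRCh38.p14, minus strand), with the 27 CpG in capitals.
SERPINB9: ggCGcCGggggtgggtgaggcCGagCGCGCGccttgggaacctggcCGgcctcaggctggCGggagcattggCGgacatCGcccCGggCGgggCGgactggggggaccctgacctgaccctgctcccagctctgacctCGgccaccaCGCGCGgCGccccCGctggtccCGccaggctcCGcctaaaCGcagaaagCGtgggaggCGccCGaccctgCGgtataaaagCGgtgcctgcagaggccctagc

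The 18q21 cluster spans 543.0 kb and is known for serpins of squamous epithelium. Along the chromosome its genes run SERPINB5, SERPINB12, SERPINB13, SERPINB4, SERPINB11, SERPINB3, SERPINB7, SERPINB2, SERPINB10 and SERPINB8. All 5 that were tested rose, where 32.0% of all genes tested did. Of these 5, 3 had passed the filter through UHRF1 KO alone. The 5 lay at both ends and in the middle, with genes at 0 counts between them. SERPINB8, an inhibitor of furin-like proteases, was the most abundant, with 15.7 and 16.9 CPM in control against 23.8 and 28.8 CPM in UHRF1 KO (log2 fold change 0.70, SE 0.096, edgeR adjusted p = 1.56e-07). It shares 370 exonic bases with HMSD, which had 5 to 19 counts. SERPINB7, known for palmoplantar keratoderma, had 0.841 and 0.755 CPM in control against 1.93 and 1.73 CPM in UHRF1 KO (log2 fold change 1.19, SE 0.36, edgeR adjusted p = 0.0046). With DESeq2 its adjusted p was 0.0545.

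SERPINB5, or maspin, is widely described as silenced by promoter methylation in cells that do not express it. It had 0 counts in both controls and 18 and 37 counts in UHRF1 KO, which is 0.868 and 1.49 CPM. Set against the 3 counts that 0 over both control libraries allows, it was at least 14.6-fold higher (edgeR adjusted p = 5.38e-07), although its level stayed low. SERPINB2, an inhibitor of urokinase, likewise went from 0 counts in both controls to 10 and 17 counts in UHRF1 KO. Against the same 3 control counts it was at least 7.18-fold higher. It did not pass the filter, and with no filter its edgeR adjusted p was 3.84e-05. SERPINB2 shares 547 exonic bases with SERPINB10, which had 0 counts. SERPINB11 had 1 and 1 counts in control and 2 and 1 in UHRF1 KO.

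SERPINB3 and SERPINB4 are the squamous cell carcinoma antigens, inhibitors of cysteine and serine proteases. SERPINB3 had 14 and 8 counts in control and 101 and 84 in UHRF1 KO, and SERPINB4 had 9 and 11 counts in control and 60 and 50 in UHRF1 KO. The log2 fold changes were 2.74 (SE 0.33, edgeR adjusted p = 7.74e-09) and 2.13 (SE 0.37, edgeR adjusted p = 7.78e-06). These are near-identical copies, so their single counts are uncertain. In the 1170-base coding sequence of a GENCODE transcript of each, 56 positions differed (95.2% identity), the longest identical run was 129 bases and 23.2% of all 50-base windows were identical. With the counts of both summed, an alternative added after seeing the data, levels were 1.29 and 1.02 CPM in control against 7.76 and 5.39 CPM in UHRF1 KO, a 5.62-fold rise (log2 fold change 2.49, SE 0.25, edgeR adjusted p = 1.87e-10). The sum does not depend on how reads were split between them, but it would lack any reads left out for matching both. SERPINB3 also shares 620 bases, 34.9% of its exons, with the opposite strand of SERPINB11, which had 1 to 2 counts per library.

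The stretch of 120 coding bases with the most differences, positions 950 to 1069 counted from the start codon, holds 18 of the 56. A read tells the copies apart only where it covers a position that differs. Capitals mark the positions that differ.
SERPINB3: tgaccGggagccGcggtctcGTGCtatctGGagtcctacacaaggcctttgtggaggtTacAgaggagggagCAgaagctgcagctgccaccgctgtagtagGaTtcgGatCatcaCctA
SERPINB4: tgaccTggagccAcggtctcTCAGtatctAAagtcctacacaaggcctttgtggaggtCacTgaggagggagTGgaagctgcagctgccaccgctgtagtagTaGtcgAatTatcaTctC
Their promoters were closer still. Over the 250 bases before the RefSeq start, 247 were identical (98.8%). For SERPINB3 the 180 bases that precede the first GENCODE exon are shown (chr18:63661964-63662143, GRCh38.p14, minus strand). For SERPINB4 the matching 180 bases are shown (chr18:63644327-63644506, minus strand), whose exon-free stretch runs on to 63644299. The 2 stretches differ at 1 position, in capitals.
SERPINB3: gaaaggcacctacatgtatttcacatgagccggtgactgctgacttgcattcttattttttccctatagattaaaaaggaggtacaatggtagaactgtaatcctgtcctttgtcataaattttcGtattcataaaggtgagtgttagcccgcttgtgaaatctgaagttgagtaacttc
SERPINB4: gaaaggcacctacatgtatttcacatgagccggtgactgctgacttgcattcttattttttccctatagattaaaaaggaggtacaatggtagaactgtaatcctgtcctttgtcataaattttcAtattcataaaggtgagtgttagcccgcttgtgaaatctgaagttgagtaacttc

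**Figure D2:**
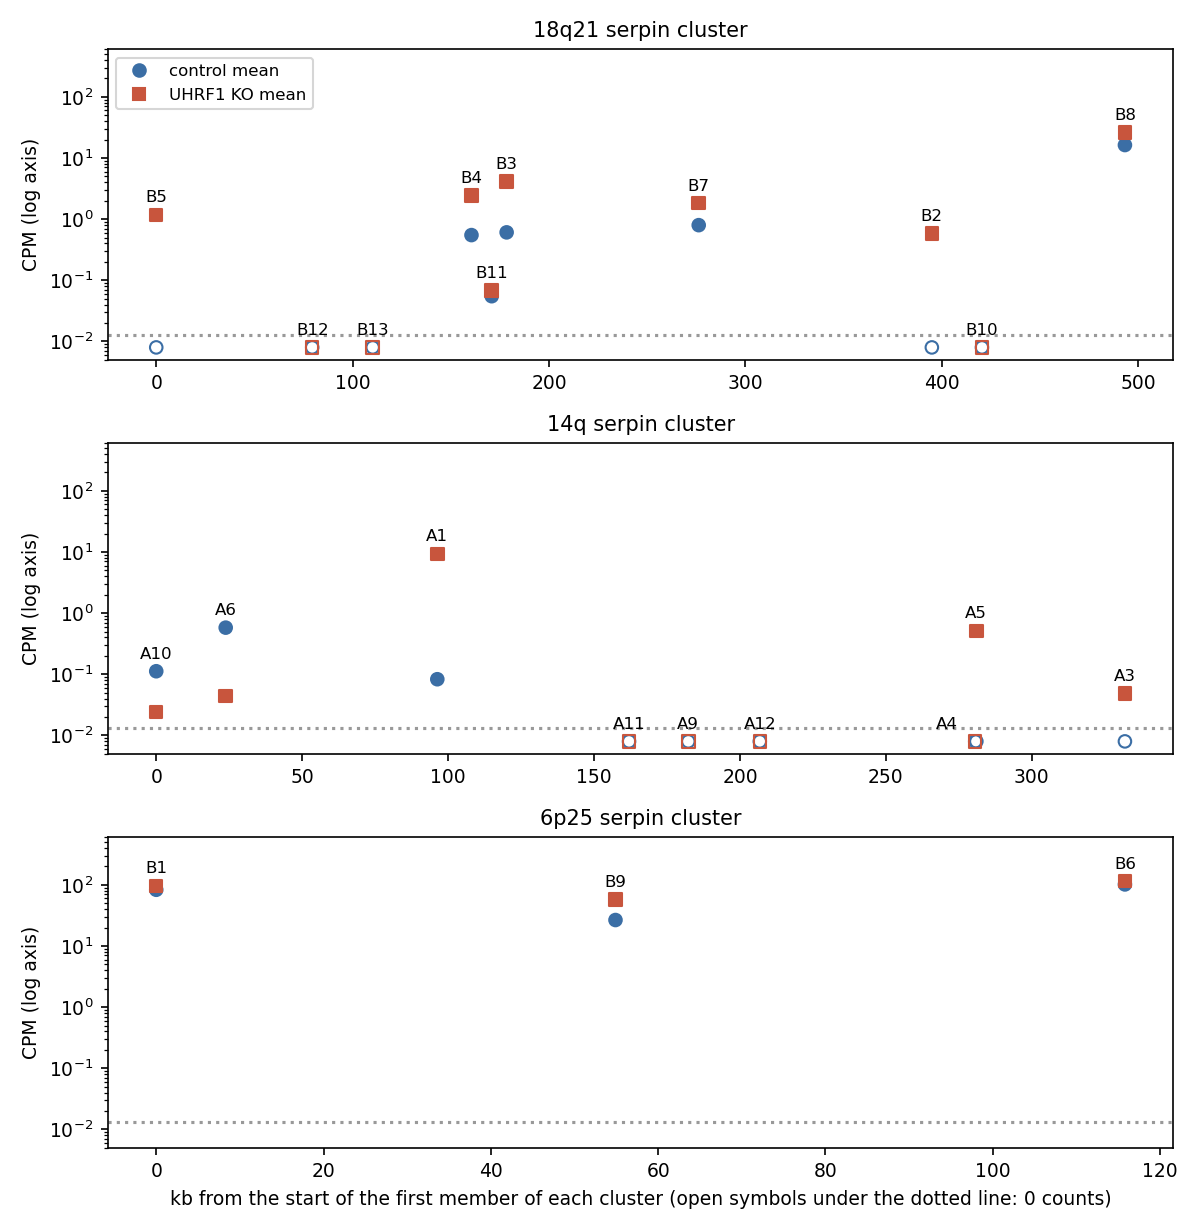
Mean CPM of each serpin in gene order within the 3 clusters (blue circles, control; red squares, UHRF1 KO; log axis), plotted by distance in kb from the first member. In the 18q21 panel SERPINB5 and SERPINB2 have 0 counts in control and are above 0.5 CPM in UHRF1 KO, while SERPINB12, SERPINB13 and SERPINB10 stay at 0.

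Genes that flank the 18q21 serpins were read as well. Of 10 neighbours tested among 11 listed, 1 rose and 5 fell, with a median log2 fold change of -0.21, where 32.0% of all genes tested rose and 30.1% fell. KDSR, a sphingolipid enzyme, had 51.5 ± 0.82 CPM in control against 64.1 ± 0.036 CPM in UHRF1 KO (log2 fold change 0.32), and 0.02 (edgeR adjusted p = 0.785) with libraries recentred. CDH7, a cadherin, fell from 4.72 ± 1.57 to 2.01 ± 0.46 CPM, and VPS4B, of the ESCRT machinery, fell by 0.23 on the log2 scale. Squamous keratinocyte markers were read beside the 18q21 serpins. Of 14 listed, 8 were tested, 7 rose (32.0% of all genes tested did) and DSC3 fell, with 4 of the 8 passing the filter through UHRF1 KO alone, and their summed level was 11.2 to 11.3 CPM in control against 25.8 to 26.7 CPM in UHRF1 KO. KRT14 rose from 0.137 ± 0.035 to 4.22 ± 0.17 CPM and KRT16 from 1.33 ± 0.50 to 9.20 ± 0.13 CPM. The cornified envelope genes IVL, SPRR1A, SPRR1B and SPRR3 had 0 counts in all libraries. Markers of unrelated cell types were read too. Of 10 fibroblast and endothelial markers listed, 5 were tested and 4 rose, 3 of the 5 having passed through UHRF1 KO alone, and their sum was 5.89 to 8.41 CPM in control against 54.0 to 57.2 CPM in UHRF1 KO. PECAM1, an endothelial adhesion molecule, made up 29.9 CPM of it in UHRF1 KO. The part of all these markers in the serpin result was not tested.

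Clade A was mostly at or near 0 counts. Of its 10 genes, 9 lie in the 343.6-kb cluster on 14q and SERPINA7, the thyroxine-binding globulin, on the X chromosome. SERPINA4, SERPINA7, SERPINA9, SERPINA11 and SERPINA12 had 0 counts in all libraries, where 3 counts would be 0.168 CPM in the shallowest library. SERPINA1, alpha-1 antitrypsin (chromosome 14, 94376747 to 94390693, minus strand), was the 1 member tested. It had 2 and 1 counts in control and 189 and 237 counts in UHRF1 KO, which is 0.112 and 0.0539 CPM against 9.11 and 9.53 CPM. The ratio was 113, with a 95% exact counting interval of 38.5 to 552 (edgeR adjusted p = 1.97e-17). No other serpin with counts in control had a larger fold change, and the UHRF1 KO replicates lay close together.

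The other genes of the 14q cluster did not move as a block. SERPINA5, the protein C inhibitor, had 0 counts in both controls and 13 and 10 counts in UHRF1 KO, at least 6.12-fold higher, and was called when no filter was applied (edgeR adjusted p = 1.83e-04). SERPINA6, the corticosteroid-binding globulin and a direct neighbour of SERPINA1 among the members, went the other way. It had 12 and 9 counts in control and 1 and 1 in UHRF1 KO, and with no filter its log2 fold change was -3.58 (SE 0.97, edgeR adjusted p = 9.65e-04). SERPINA10 had 4 and 0 counts in control and 1 and 0 in UHRF1 KO. SERPINA3, the acute phase inhibitor of cathepsin G, had 0 and 0 counts in control and 2 and 0 in UHRF1 KO.

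SERPINA1 is shown because it had the largest rise from a measured control level. RefSeq gives 2 starts, whose 300-base windows hold 8 and 12 CpG. The bases of the first window that precede the first GENCODE exon (chr14:94390694-94390885, GRCh38.p14, minus strand) hold 5 CpG, in capitals.
SERPINA1: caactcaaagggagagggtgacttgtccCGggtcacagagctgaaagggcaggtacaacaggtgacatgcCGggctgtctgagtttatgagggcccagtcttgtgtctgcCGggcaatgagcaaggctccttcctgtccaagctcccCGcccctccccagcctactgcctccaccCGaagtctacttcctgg

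SERPINA1 is an acute phase protein of liver, and other genes of that class were read beside it. Of 26 acute phase genes listed, 14 were tested, 13 rose, each at least 2-fold (15.4% of all genes tested did), and AGT was not called, with a median of 2.64. Of the 14, 6 passed the filter through UHRF1 KO alone. FGA, a fibrinogen chain, rose from 11.4 ± 0.26 to 59.9 ± 2.55 CPM and complement C3 from 59.5 ± 3.07 to 233 ± 5.27 CPM. AGT, angiotensinogen, is by sequence a clade A serpin that does not carry the name, and its 0.633 ± 0.057 CPM in control against 0.728 ± 0.062 CPM in UHRF1 KO did not pass the test (edgeR adjusted p = 0.730). Hepatocyte markers went both ways: of 12 listed 4 were tested, 2 rose and 1 fell, where 32.0% and 30.1% of all genes tested did. Of the 4, 1 passed the filter through UHRF1 KO alone. The 12 summed to 8.80 to 9.06 CPM in control against 42.6 to 42.9 CPM in UHRF1 KO. Most of that sum was HPD, at 36.8 ± 0.43 CPM in UHRF1 KO, while APOH fell 2.16-fold and F9 had 0 counts. The part of these genes in the SERPINA1 result was not tested.

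Clades C and D are the heparin-activated inhibitors of thrombin. SERPIND1, heparin cofactor II (chromosome 22, 20773879 to 20787720, plus strand), had 1 and 2 counts in control and 36 and 33 in UHRF1 KO. The ratio was 18.4 with a 95% exact counting interval of 6.02 to 91.2, and the level in UHRF1 KO was 1.74 and 1.33 CPM (edgeR adjusted p = 5.67e-07). SERPINC1, antithrombin, had 2 and 0 counts in control and 3 and 0 in UHRF1 KO, too few to compare. SERPING1, the C1 inhibitor and sole member of clade G, had 0 counts in control and 1 and 4 in UHRF1 KO. Its target C1S, a complement protease, rose from 111 ± 1.06 to 281 ± 3.06 CPM.

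Clade F split. SERPINF1, or PEDF, a secreted antiangiogenic and neurotrophic factor (chromosome 17, 1761959 to 1777574, plus strand), had 1.40 and 2.05 CPM in control against 6.61 and 5.27 CPM in UHRF1 KO. Both UHRF1 KO libraries were above both controls, a 3.40-fold rise (log2 fold change 1.77, SE 0.23, edgeR adjusted p = 3.69e-08). SERPINF2, the plasmin inhibitor alpha-2-antiplasmin and its neighbour at 1742836 to 1755268, had 1.63 and 1.99 CPM in control against 1.35 and 2.25 CPM in UHRF1 KO. The groups overlapped (log2 fold change 0.01, SE 0.30, edgeR adjusted p = 0.976).

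The members that fell were SERPINH1 and SERPINI1, the sole member of clade H and the expressed member of clade I. SERPINI1, neuroserpin, an inhibitor of tissue plasminogen activator known from neurons (chromosome 3, 167735243 to 167825568, plus strand), had 6.95 and 6.63 CPM in control against 3.62 and 3.90 CPM in UHRF1 KO. It was 1.80-fold lower (-0.85 on the log2 scale, SE 0.17, edgeR adjusted p = 7.63e-05), and both UHRF1 KO libraries were below both controls. Its clade partner SERPINI2 had 0 counts in all libraries.

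SERPINH1, or HSP47, is the collagen chaperone of the endoplasmic reticulum (chromosome 11, 75562056 to 75572783, plus strand). It had 108 and 101 CPM in control against 86.2 and 91.2 CPM in UHRF1 KO (log2 fold change -0.23, SE 0.050, edgeR adjusted p = 1.51e-04). Its clients and the enzymes that work beside it mostly went up. Of 22 collagen and collagen-folding genes matched from 24 listed, 21 were tested, 15 rose and 4 fell, against 32.0% and 30.1% of all genes tested, with a median of 0.51. COL6A1 and COL6A2, chains of collagen VI, rose 6.76-fold and 4.64-fold, and P4HB, the disulfide isomerase subunit of prolyl hydroxylase, rose from 748 ± 13.8 to 1063 ± 20.8 CPM. HSPA5, the general chaperone of the same compartment, fell like SERPINH1, by 0.25 on the log2 scale. The difference between SERPINH1 and its partners was not tested.

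**Figure D3:**
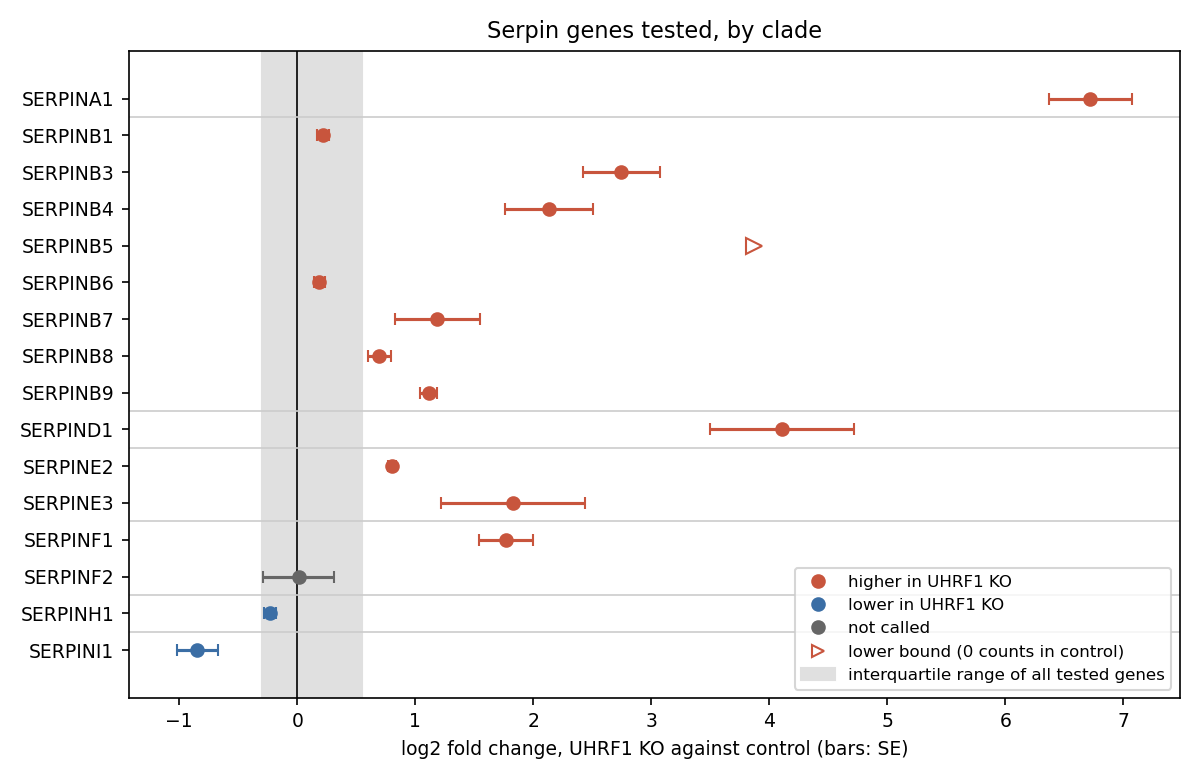
Log2 fold change of UHRF1 KO against control for the 16 serpins tested, by clade, with SE bars, and for SERPINB5 the lower bound set by the floor of 3 control counts. Clades B, D and E lie to the right of 0, SERPINH1 and SERPINI1 lie to the left, and the grey band is the interquartile range of all tested genes (-0.30 to 0.55).

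Per length of merged exons, the leading levels in control were those of SERPINB1 at 26.8, SERPINE2 at 23.95 and SERPINH1 at 16.6 CPM per kb. SERPINB6 and SERPINB9 followed at 7.68 and 6.44 CPM per kb. SERPINI1 and SERPINB8, at 2.81 and 2.78 CPM per kb, overlapped between libraries. In UHRF1 KO the order of these genes was SERPINE2 at 41.8, SERPINB1 at 31.1, SERPINH1 at 14.1 and SERPINB9 at 13.9 CPM per kb, the last 2 overlapping between libraries. On this measure SERPINE2 stood above SERPINB1 in UHRF1 KO and below it in control. In CPM it was above SERPINB1 in both groups, at 213 against 82.9 in control and 371 against 96.3 in UHRF1 KO. The order thus rests on merged exon lengths of 8891 and 3094 bases, which need not be those of the transcripts expressed. SERPINA1, at 0.0169 CPM per kb in control, reached 1.90 CPM per kb, close to the 1.93 CPM per kb of SERPINF1.

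Promoter sequence was compared because CpG are the sites of the methylation that UHRF1 helps to maintain, and no methylation was measured here. RefSeq windows of 300 bases (250 before and 50 after each start) were found for 27 of the 33 members and not for SERPINB10, SERPINB11, SERPINC1, SERPINF1, SERPINF2 and SERPING1. For 22 of the 27, the last 20 bases of a window lay in a GENCODE transcript of the gene. Some windows lie largely in GENCODE exons, so their CpG may be in transcribed sequence. The longest stretch free of exons before the start was 16 bases for SERPIND1 and 53 for SERPINB5. The median window of all 35116 held 14 CpG. The 7 members with a window and at least 1 CPM in control held 9 to 45 CpG at their richest start (median 28). The 7 members under 1 CPM in control that were called higher held 2 to 16 (median 3), and the 8 with 0 counts in all libraries held 0 to 5 (median 2.5). SERPINB5, with 16, and SERPINA1, with 12, were the richest of the called members that were low in control. SERPINB3, SERPINB4, SERPINB7 and SERPIND1 rose with 2 or 3 CpG. Of the 7 called higher from under 1 CPM, 6 passed the filter through UHRF1 KO alone, so for them a call of lower was hardly possible. The part of CpG content in these rises was not tested.

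**Figure D4:**
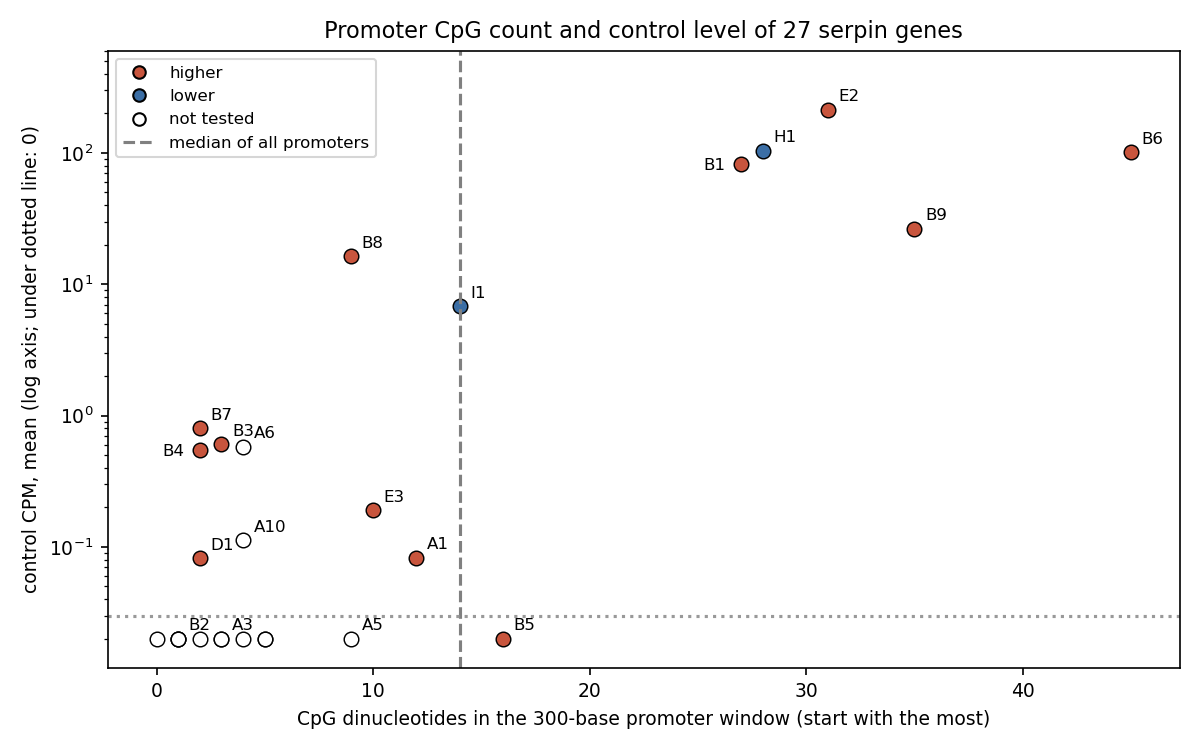
CpG count in the 300-base promoter window (the start with the most CpG) against mean control CPM on a log axis for 27 serpins, filled by call, with points under the dotted line at 0 counts. Serpins with 27 to 45 CpG lie at 26.5 CPM or more in control, and those with 5 or fewer lie under 1 CPM.

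SERPINB5 and SERPINB2 both went from 0 counts to a low level, with unlike promoters. For SERPINB5 the 53 bases of the window that precede the first GENCODE exon (chr18:63476708-63476760, GRCh38.p14, plus strand) hold 3 CpG, in capitals. The SERPINB2 stretch (chr18:63887455-63887699, plus strand) holds 0 CpG. Capitals there mark a TATAAA box and a match to TGANTCA, a pattern looser than the AP-1 consensus TGACTCA or TGAGTCA. The SERPINB2 match, TGAATCA, is not that consensus.
SERPINB5: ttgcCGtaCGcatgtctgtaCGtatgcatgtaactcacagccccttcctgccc
SERPINB2: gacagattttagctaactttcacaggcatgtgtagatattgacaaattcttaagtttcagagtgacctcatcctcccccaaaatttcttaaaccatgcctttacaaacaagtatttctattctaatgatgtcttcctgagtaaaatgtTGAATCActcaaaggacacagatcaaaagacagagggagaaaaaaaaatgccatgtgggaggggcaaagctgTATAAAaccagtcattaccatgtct
The pattern TGANTCA, searched on both strands, was in the windows of 6 of the 8 serpins of the 18q21 cluster that had any. These were SERPINB2, SERPINB5, SERPINB7 and SERPINB8, whose counts were higher in UHRF1 KO, and SERPINB12 and SERPINB13, which had 0 counts. By window this was 7 of 11 (63.6%), against 2 of 30 (6.67%) for the other serpins, 7.71% of all windows and 11.9% of windows with no more CpG than the richest of the cluster. The pattern was chosen with the count results known, and some genes have several windows, so these shares are a description. They hold for the loose pattern, and shares for the AP-1 consensus were not computed. SERPINB7, SERPINB8 and SERPINB13 had a match with C or G in the middle, as in the consensus. SERPINB2, SERPINB5 and SERPINB12 matched only with A or T there. SERPINB3 and SERPINB4, the tested members of the cluster with the largest fold changes from a measured control level, had no match in these windows.

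Among partner lists, the proteases that serpins inhibit rose in 17 of 25 tested cases and fell in 2, with a median log2 fold change of 0.91 and 53 genes listed. The lysosomal cathepsins CTSB and CTSL, the second of them a known target of SERPINB3, rose from 746 ± 15.7 to 2479 ± 31.5 CPM and from 949 ± 18.4 to 1745 ± 15.0 CPM. Cofactors and receptors rose in 13 of 18 tested cases and fell in 2, with a median of 0.22. SDC4, a heparan sulfate proteoglycan, rose 3.64-fold and the integrin chain ITGAV 1.41-fold. MCFD2, part of the cargo receptor for secreted factors, was at 0.09 (edgeR adjusted p = 0.0303) and turned to -0.21 with libraries recentred. Its call was lost with no filter (edgeR adjusted p = 0.308), the replicate block (edgeR adjusted p = 0.0565) and DESeq2 (adjusted p = 0.0870). It held with limma-voom, upper-quartile factors, DESeq2 size factors, the crossed replicate block and a 1 CPM filter. Protease inhibitors outside the serpin family rose in 13 of 24 tested cases and fell in 7, with a median of 0.71. TFPI2 rose 5.50-fold, to 802 ± 14.6 CPM, TIMP1 rose 3.84-fold and APP, whose long forms carry an inhibitor domain, fell by 0.21 on the log2 scale. Background shares were 32.0% higher and 30.1% lower, and 5 of the protease and 5 of the inhibitor genes tested passed the filter through UHRF1 KO alone.

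**Figure D5:**
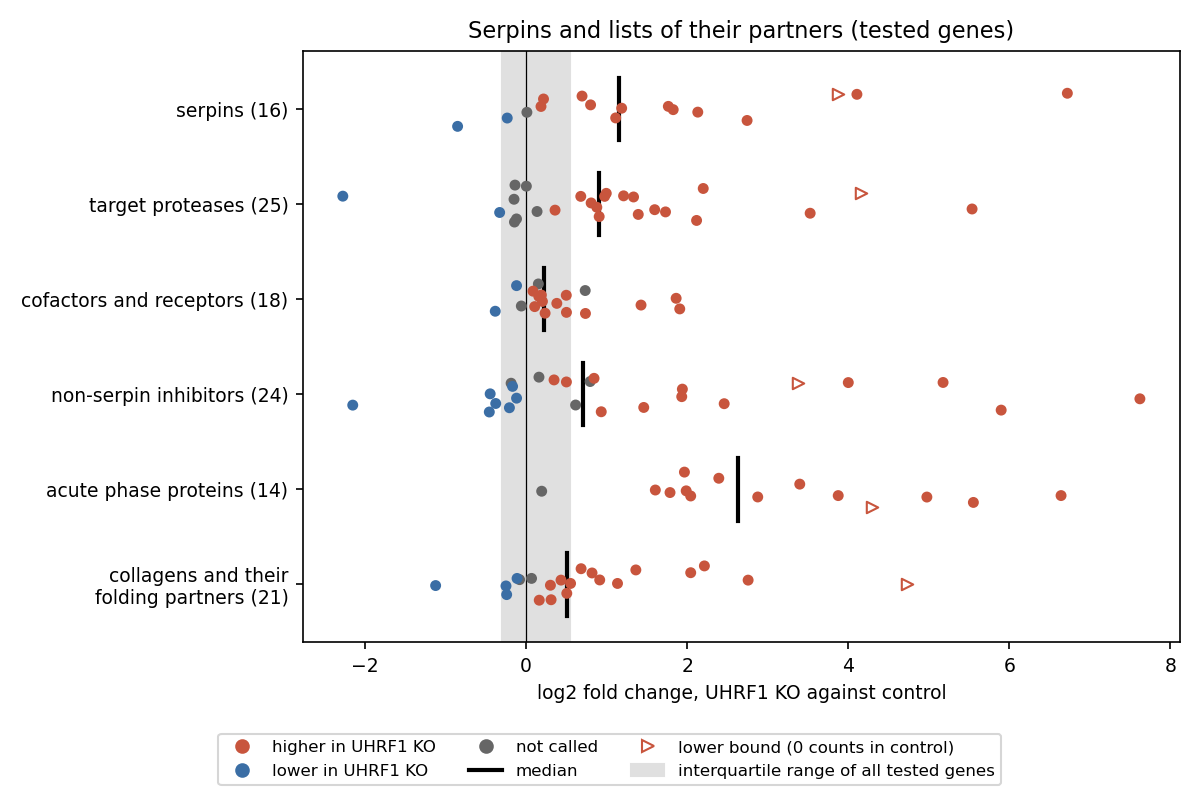
Log2 fold change of each tested gene for the serpins and 5 lists of partners, coloured by call, with the median as a black bar and the number tested in brackets. Triangles are lower bounds for genes with 0 control counts. Medians run from 0.22 for cofactors and receptors to 2.64 for acute phase proteins, with 1.15 for serpins.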

How the data were processed

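Read counts per gene from RNA-seq of 4 A549 libraries were analysed. The authors deposited whole-number counts per Ensembl gene, not normalized. Per the labels' protocols, Trizol RNA went into a SMARTER mRNA library kit. GRCh38 and FastQC 0.10.1 are named per the submitters' processing notes. Not given in the sources used here are aligner, counter, annotation, strand use and the treatment of multiply matching reads, which bears on SERPINB3, SERPINB4 and SERPINE3. Both controls share a description, so control columns were matched by the number in the titles. Symbols, positions and exon lengths came from GENCODE 29, and all 58735 identifiers matched. Promoter windows came from RefSeq (GRCh38.p14), and coding sequence from GENCODE 29.

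Replicates differed by more than counting noise (chi-square per degree of freedom 2.65 for control and 1.85 for UHRF1 KO). Genes passing filterByExpr were scaled by TMM and tested with edgeR 4.0.16 (R 4.3.3, robust quasi-likelihood, two-sided, group only). The steps were tested on simulated data. SE is the size of the log2 fold change divided by the root of F. Genes at 0 in both controls get a lower bound from 3 counts over the 2 libraries, and members with 1 to 3 control counts get an exact counting interval. Intervals cover counting error only. The lower bounds cover that of the control counts only and take the UHRF1 KO counts as measured. Alternatives used DESeq2 1.42.0, limma 3.58.1 (voom), other scalings, filters and thresholds, a replicate block, and each library left out. Members and lists were chosen with earlier results of these data known, and 2 listed aliases did not match. Of the 34 genes that met the rule, 1 is not reported here and enters no count or sum of members. Values are given for members with at least 1 CPM in either group or with 0 control and at least 10 UHRF1 KO counts, and for the 2 most significant and 2 most abundant genes of each list. Genes named beyond that were chosen after their values were seen.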

Additional observations from a re-analysis of the deposited data

How the results depend on the processing

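Over the 13 alternative fits and 2 other thresholds, 9 to 15 serpins were higher and 0 to 3 lower. A minimum of 2-fold gave 0 lower serpins, and 2616 higher and 432 lower genes overall. Recentring the libraries gave 3461 higher and 8467 lower genes, and turned SERPINB1 to -0.081, SERPINB6 to -0.11, SERPINF2 to -0.29 and MCFD2 to -0.21. SERPINF2, never called, was also at -0.020 with no filter, -0.021 with limma-voom, -0.015 with the replicate block, -0.012 with the crossed replicate block and -0.0016 with DESeq2, and ran from -0.43 to 0.31 without 1 library. Serpins higher ran from 12 to 15 and lower from 2 to 3 without 1 library. The correlation of same-numbered deviations was -0.026, so the numbers were not taken as pairs. With the replicate block 13 serpins were higher and 2 lower, as with the crossed block, which was added after seeing the data. Levels under 1 CPM rest on few counts, which limits SERPINB2, SERPINA5, SERPINA6 and SERPINE3. The cause of these shifts was not tested.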

Other observations

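Serpin genes outside the protein-coding set were near silent. Of 8 such symbols in the table, SERPINB9P1, a noncoding RNA between SERPINB1 and SERPINB9, had 7 and 6 counts in control and 11 and 18 in UHRF1 KO (edgeR adjusted p = 0.183). SERPINH1P1, a processed copy of SERPINH1, had 5 and 8 counts in control and 9 and 15 in UHRF1 KO and was not tested. SERPINA2, beside SERPINA1, had 0 counts in all libraries.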
